A study of Mus musculus with 24 samples.

Results

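Hearts of mice exposed to hypoxia and to transverse aortic constriction (TAC) together were compared with hearts of mice exposed to neither. TAC narrows the aorta with a suture, so that the left ventricle pumps against a raised pressure. The members were chosen by title: 6 mice with hypoxia and TAC and 6 with normoxia and sham surgery, 12 of the 24 mice in the series. The 6 mice with normoxia and TAC (TAC alone) and the 6 with hypoxia and sham surgery (hypoxia alone) served to ask which changes added up, were cancelled, or appeared only with both stresses. All were wild-type C57/Bl6J mice. The constriction was tied over a blunt 25-gauge needle between the innominate and left common carotid arteries, and the heart apex was taken on day 3. The labels give no oxygen level, duration of hypoxia, age, sex, harvest time or sequencing batch. They name the mice only as separate samples, so each p-value measures the spread between these samples.

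Pressure overload and low oxygen both ask the heart to change its gene programme. A loaded ventricle turns on natriuretic peptides and other fetal-type genes, makes collagen and draws in leukocytes, while it turns down genes for burning fatty acids. Low oxygen stabilises the HIF transcription factors, which raise genes for glycolysis and, in the kidney and liver, erythropoietin, the hormone that drives red cell production. The circadian clock runs in heart muscle too: CLOCK and BMAL1 (encoded by Arntl) switch on the Per genes, Ciart, Tef and Dbp through E-box elements, and PER proteins then repress CLOCK and BMAL1.

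Total counts per library ran from 10136915 to 15058159, and 15027 genes were tested in 1 fit of all 24 libraries. Levels are given as CPM, counts scaled to TMM-adjusted library size but not to gene length, and changes as log2 differences ± standard error with adjusted p-values from edgeR's quasi-likelihood test. A gene was called changed at an adjusted p under 0.05. The tissue label held: the summed level of 8 cardiomyocyte markers was 62290 to 69610 CPM in the unstressed mice and 52050 to 74320 CPM in the mice with both stresses, while the brown fat gene Ucp1 and the atrial gene Bmp10 had no count in any library. Other members of their lists did have counts. In the same order of groups, atrial markers summed to 18.57 to 20.87 and 20.8 to 26.37 CPM. Adipocyte markers summed to 0.08 to 1.49 and 0 to 5.73 CPM, and skeletal muscle markers to 3383 to 3906 and 1738 to 3767 CPM. The spread between mice was uneven. The median SD of log2 CPM was 0.173 in normoxia sham and 0.175 in hypoxia sham mice, against 0.323 with both stresses and 0.409 with TAC alone. A limma voom fit with 1 weight per group, called the weighted fit here, was therefore set beside the edgeR fit, which uses 1 spread per gene for all groups.

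Both stresses together changed 1974 genes against the unstressed hearts, 13.1% of those tested: 1147 were higher (7.63%) and 827 lower (5.5%). Of these, 489 rose and 170 fell at least 2-fold (4.39% in all). The median log2 change over all tested genes was 0.01. All 6 mice with both stresses lay above all 6 unstressed mice for 532 genes (3.54%) and below them for 545 (3.63%). The weighted fit called 2859 genes (19% of those tested; 9.67% higher, 9.36% lower) and shared 1889 of them with edgeR. The rises called were also called for TAC alone in 707 of 1147 genes and for hypoxia alone in 6, and neither single stress was called in 433. In the weighted fit, 1453 genes rose, of which 711 were called the same way for TAC alone, 185 for hypoxia alone and 658 for neither. These comparisons share the same 6 unstressed mice. Hypoxia TAC 3 was the mouse furthest from sham for 244 of the 489 rises, and hypoxia TAC 4 was the nearest for 288. Without hypoxia TAC 3 the number of changed genes was 990, without hypoxia TAC 4 it was 2824, and without normoxia sham 3 it was 1249.

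Of 16 tested hypertrophy and cardiac stress genes, 8 rose with both stresses and none fell, with a median log2 change of 1.53. Nppa encodes atrial natriuretic peptide, a hormone that stretched muscle releases. It ranged from 143 to 271 CPM (median 221) in the unstressed mice and from 301 to 2527 CPM (median 835) in the mice with both stresses. The groups did not overlap, and the log2 change was 2.39 ± 0.42 (adjusted p = 0.00161). The muscle LIM-domain gene Fhl1 rose from a median of 95.4 to 638 CPM (2.98 ± 0.60, adjusted p = 0.00391), and all 6 mice with both stresses lay above the unstressed mice. Uchl1, a deubiquitinating enzyme, rose by 1.90 ± 0.29 (adjusted p = 0.000702). Sprr1a, which encodes a small proline-rich protein induced in stressed muscle, had 3 reads in all over the 6 unstressed mice and 1788 over the 6 with both stresses. Its level there ran from 0.273 to 80.9 CPM (median 3.46), and its fitted log2 change of 9.0 ± 1.89 (adjusted p = 0.00494) rests on those few sham reads. For comparison, TAC alone raised 15 of the 16 listed genes (16.8% of all tested genes rose there), with a median of 2.14. Without hypoxia TAC 3, the count with both stresses was 6, and without hypoxia TAC 4 it was 10.

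**Figure D1:**
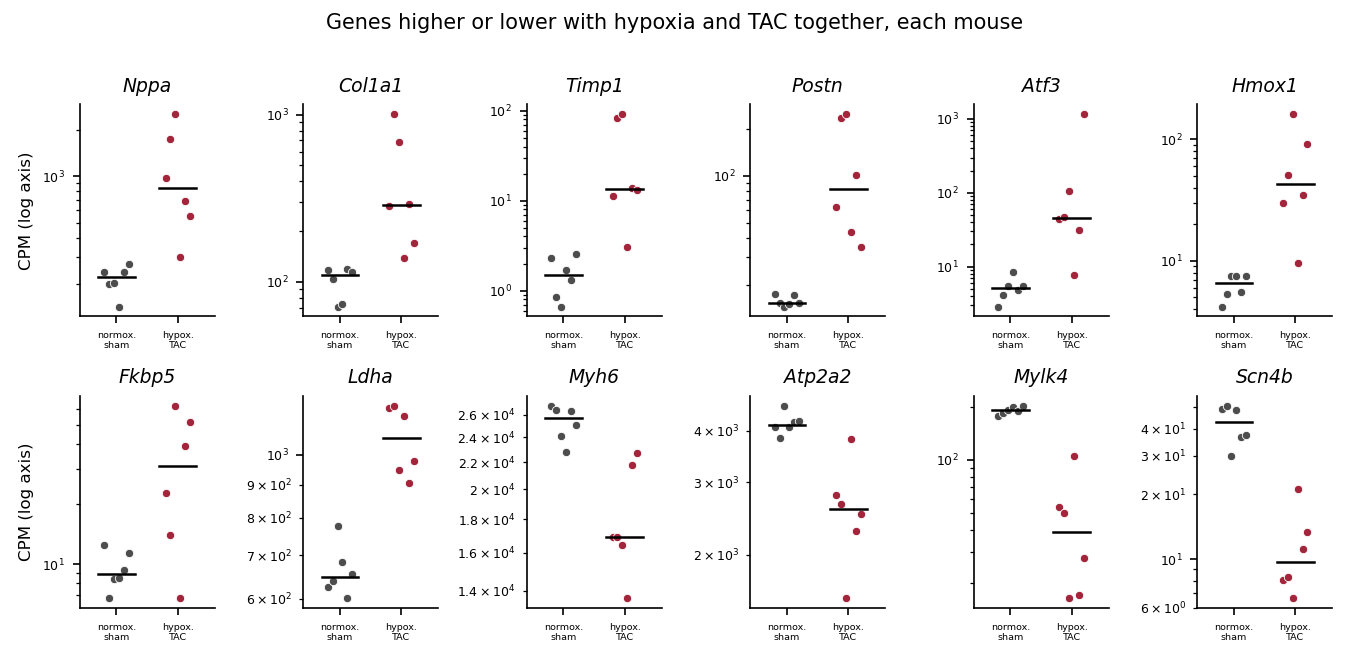
Each point is 1 mouse, on a log axis of CPM, for 12 genes in normoxia sham (grey) and hypoxia TAC (red), and each black line is the group median. Nppa, Col1a1, Timp1, Postn, Hmox1 and Ldha do not overlap between the groups and are higher with both stresses, while Myh6, Atp2a2, Mylk4 and Scn4b are lower in all 6 mice.

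Extracellular matrix genes rose widely: 23 of 31 tested members rose and none fell, with a median log2 change of 1.53. Postn encodes periostin, a matrix protein of activated fibroblasts. It stayed between 14.5 and 17.6 CPM (median 15.4) in the unstressed mice and reached 34.7 to 248 CPM (median 82.0) with both stresses, without overlap (2.93 ± 0.44, adjusted p = 0.000716). Timp1, an inhibitor of matrix metalloproteinases, ran from 0.663 to 2.56 CPM (median 1.49) and then from 3.09 to 92.2 CPM (median 13.5). Its groups were also apart (4.53 ± 1.01, adjusted p = 0.00698). Col1a1, the main fibrillar collagen chain of scars, ran from 70.9 to 119 CPM (median 109) and from 138 to 1008 CPM (median 287), again apart (2.10 ± 0.57, adjusted p = 0.0201). Spp1 encodes osteopontin, made by macrophages and stressed muscle cells. It was at 0 to 0.466 CPM (median 0.180) without stress and at 1.0007 to 258 CPM (median 14.8) with both, so that its mice spread over a wide range without reaching the sham level (8.18 ± 1.63, adjusted p = 0.00373). TAC alone raised 24 of the 31, with a median of 1.89. The count with both stresses was 16 without hypoxia TAC 3 and 26 without hypoxia TAC 4.

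Of 20 tested immediate-early genes, which answer stimuli without new protein synthesis, 15 rose, with a median log2 change of 1.84. Atf3 is a transcription factor of the stress response. It was at 2.87 to 8.57 CPM (median 5.17) in the unstressed mice and at 7.64 to 1169 CPM (median 45.3) with both stresses. Only 5 of the 6 stressed mice lay above every unstressed mouse (5.47 ± 1.29, adjusted p = 0.0095). Fos rose from a median of 1.27 to 31.0 CPM (5.92 ± 1.49, adjusted p = 0.0137). TAC alone raised 15 of these genes as well. The count with both stresses was 7 without hypoxia TAC 3 and 16 without hypoxia TAC 4. Hmox1, the haem-degrading enzyme of both the HIF and the NRF2 lists, went from 4.19 to 7.54 CPM (median 6.50) up to 9.64 to 162 CPM (median 42.8). All 6 stressed mice were higher (3.33 ± 0.66, adjusted p = 0.00348). Cell division genes rose in 11 of 27 members, with a median of 1.47. This count fell to 1 without hypoxia TAC 3 and was 15 without hypoxia TAC 4. Integrated stress response genes rose in 6 of 16, and the count was 1 without hypoxia TAC 3 and 5 without hypoxia TAC 4.

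Glucocorticoid-responsive genes rose in 10 of 16 tested members, and 1, the kinase gene Pdk4, fell, a call lost in 14 of 24 fits without 1 library. Their median log2 change was 1.04 with both stresses and 0.43 with TAC alone, where 5 rose (16.8% of all tested genes rose there). With hypoxia alone the median was -0.20, and 0 rose and 1 fell. Few genes were called there at all, with 0.0865% of all tested genes higher and 0.0799% lower. The difference between these medians was not tested. Fkbp5 encodes a chaperone that dampens the glucocorticoid receptor and is itself induced by it. It lay between 6.79 and 12.5 CPM (median 8.90) in the unstressed mice and between 6.73 and 62.4 CPM (median 30.9) with both stresses. In 5 of the 6 mice with both stresses it lay above every unstressed mouse (1.79 ± 0.41, adjusted p = 0.00791). Cebpd, a transcription factor of the acute phase response, rose from a median of 1.55 to 7.15 CPM (2.45 ± 0.46, adjusted p = 0.00224). The weighted fit also called 10 rises in this list, and edgeR called 7 without hypoxia TAC 3 and 10 without hypoxia TAC 4.

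Genes of fatty acid oxidation and PPAR-alpha targets fell in 11 of 26 members, with none higher and a median log2 change of -0.47. Hadha encodes the alpha subunit of the mitochondrial trifunctional protein, which carries out steps of beta-oxidation. It ran from 1036 to 1460 CPM (median 1200.3) in the unstressed mice and from 688 to 906 CPM (median 821) with both stresses. The groups did not overlap (-0.59 ± 0.12, adjusted p = 0.00345). Cpt2, which releases acyl groups inside the mitochondrion, fell from a median of 362 to 212 CPM (-0.83 ± 0.14, adjusted p = 0.00107). TAC alone lowered 15 of these 26 genes (10.6% of all tested genes fell there), with the same median of -0.47, and the count with both stresses was 11 without hypoxia TAC 3 too. With hypoxia alone the median was -0.25. There edgeR called 0 of the 26 and the weighted fit called 12 lower and 0 higher, against 3.91% lower among all tested genes. Glycolysis genes rose in 5 of 21 members, or in 3 without hypoxia TAC 3. Without hypoxia TAC 4, 7 rose and 2 fell, and the weighted fit called 7 higher and 3 lower. Ldha, the A subunit of lactate dehydrogenase, ran from 601 to 776 CPM (median 648) and from 906 to 1192 CPM (median 1064), without overlap (0.68 ± 0.13, adjusted p = 0.00253). HIF targets rose in 5 of 23 members, namely Bnip3, Slc2a1, Ldha, Kdm3a and Hmox1. Without hypoxia TAC 3 the count was 3, without hypoxia TAC 4 it was 6 with 2 lower, and the weighted fit called 5 higher and 3 lower. Kdm3a, a histone demethylase gene, lost its call in 17 of 24 fits without 1 library. No oxidative phosphorylation gene was called among 23 by edgeR, and the weighted fit called 2 as lower.

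Contraction and calcium handling genes were mostly not called: 1 of 21 rose (Tnnc1, cardiac troponin C) and 3 fell. Myh6, the adult cardiac myosin heavy chain of the mouse, fell from 22771 to 26834 CPM (median 25685) to 13645 to 22736 CPM (median 16909). The highest mouse with both stresses lay just under the lowest unstressed mouse (-0.48 ± 0.12, adjusted p = 0.012). Atp2a2 encodes SERCA2, the pump that returns calcium to the sarcoplasmic reticulum. It was at 3844 to 4599 CPM (median 4137) without stress and at 1569 to 3822 CPM (median 2588) with both, lower in all 6 mice (-0.68 ± 0.14, adjusted p = 0.00348). Among the deepest falls were Mylk4, a myosin light chain kinase gene of the heart, and Scn4b, the beta-4 subunit of the sodium channel. Mylk4 ran from 178 to 203 CPM (median 190.1) and from 16.5 to 105 CPM (median 39.1), well apart (-2.08 ± 0.41, adjusted p = 0.00333). Scn4b ran from 29.8 to 51.0 CPM (median 43.1) and from 6.63 to 21.1 CPM (median 9.77), also apart (-1.88 ± 0.29, adjusted p = 0.000702).

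**Figure D2:**
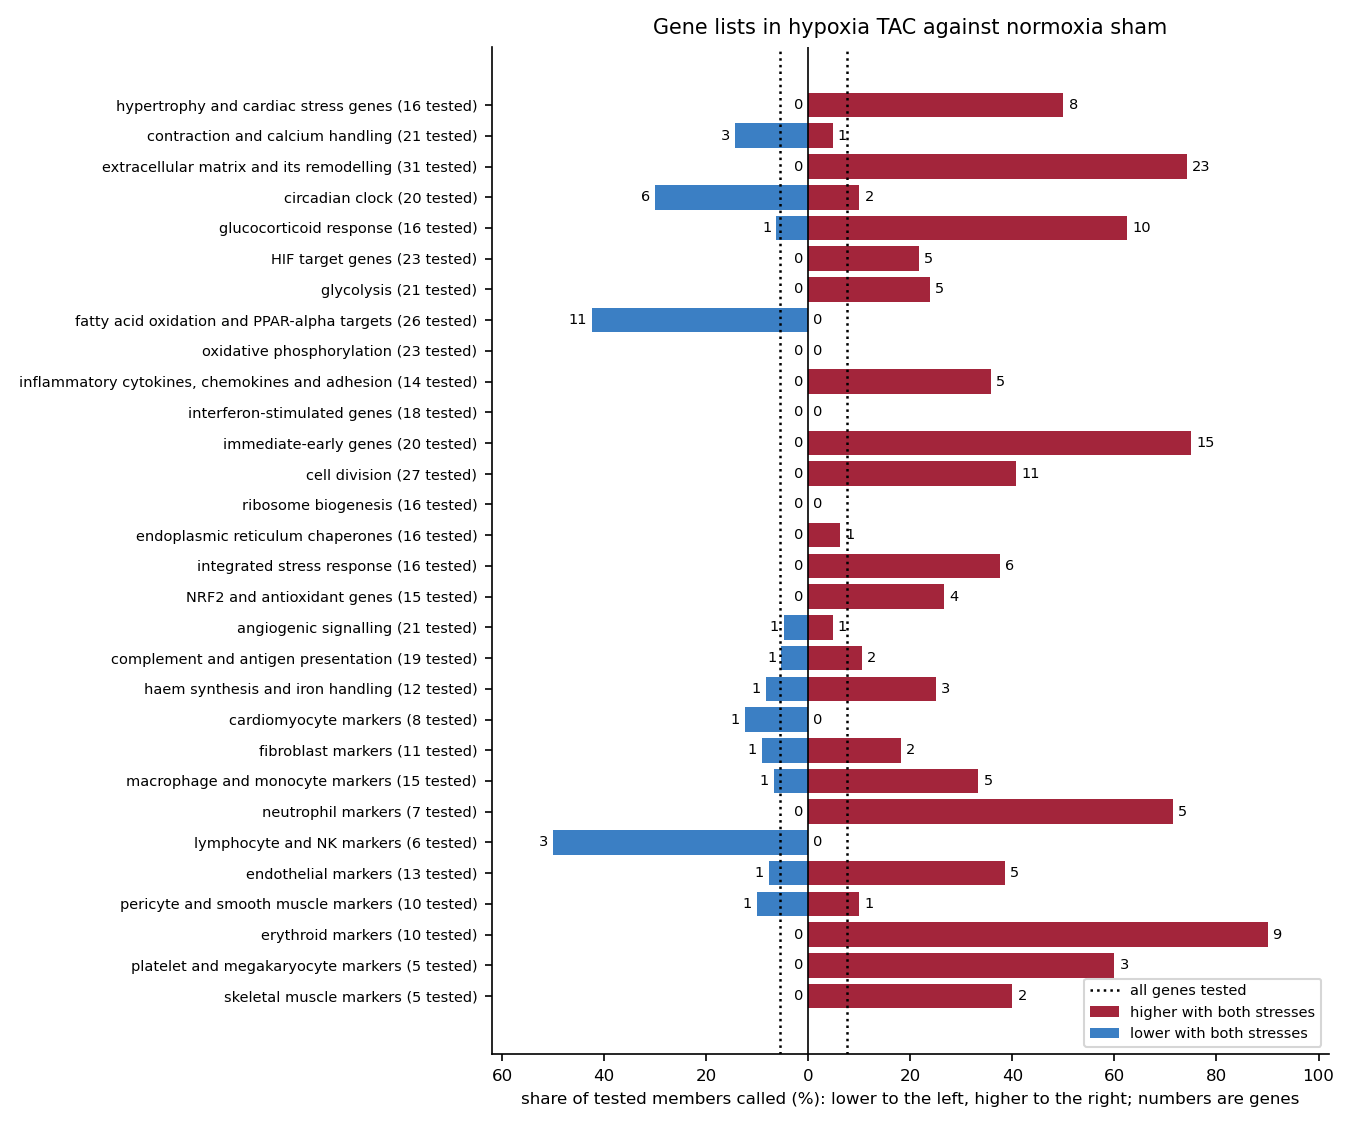
Bars give the share of tested members of each list that were called in hypoxia TAC against normoxia sham, with rises to the right in red, falls to the left in blue and the number of genes at each bar. Dotted lines mark the share over all genes tested, 7.63% higher and 5.5% lower. Erythroid markers (9 of 10), matrix genes (23 of 31) and immediate-early genes (15 of 20) have long bars to the right, and lymphocyte markers (3 of 6) and fatty acid genes (11 of 26) to the left.

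Markers of other cell types moved in both directions. In bulk tissue, more cells of a type and more RNA per cell cannot be told apart. Neutrophil markers rose in 5 of 7 tested members; their summed level was 1.24 to 4.42 CPM in the unstressed mice, 4.46 to 60.65 CPM with both stresses and 7.18 to 111 CPM with TAC alone. The count was 3 without hypoxia TAC 3, 5 without hypoxia TAC 4 and 1 when the 12 libraries were fitted alone. In that last fit, members that were not tested count as not called. Macrophage and monocyte markers rose in 5 of 15 (Cd68, Itgam, Lyz2, Cd163 and Chil3) and fell in 1 (Retnla). None was called without hypoxia TAC 3, and 7 of 16 rose and 1 fell without hypoxia TAC 4. Inflammatory cytokines, chemokines and adhesion genes rose in 5 of 14 with both stresses and in 14 of 14 with TAC alone, with medians of 2.82 and 4.52. The count with both stresses was 2 of 15 without hypoxia TAC 3, 7 of 16 without hypoxia TAC 4 and 10 of 14 without normoxia TAC 4. The difference between both stresses and TAC alone in these counts was not tested. Only 14 of the 22 genes of this list, and 7 of 12 neutrophil genes, passed the filter on low counts. A gene near 0 in the unstressed mice can pass it through a TAC group where it is high. The filter thus favours rises in these counts and medians. Lymphocyte markers fell in 3 of 6 tested members. Cd79a, a signalling chain of the B cell receptor with few reads (mean under 1 CPM), was singled out after its values were seen. It was at 0.414 to 1.34 CPM (median 0.868) in the unstressed mice and at 0 to 0.455 CPM (median 0.209) with both stresses. The groups overlapped only at their edge (-2.02 ± 0.52, adjusted p = 0.0147), and TAC alone (0.04) and hypoxia alone (0.07) gave log2 changes near 0. The summed lymphocyte markers ran from 16.15 to 20.22 CPM without stress, from 4.17 to 13.92 CPM with both, from 7.77 to 19.64 CPM with TAC alone and from 14.5 to 24.25 CPM with hypoxia alone.

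Red cell markers and some endothelial markers also rose. Erythroid markers rose in 9 of 10 tested members, the alpha- and beta-globin pairs (whose near-identical copies share reads) among them, and this count stayed at 9 without hypoxia TAC 3. Their summed level was 669 to 1369 CPM in the unstressed mice, 1417 to 5625 CPM with both stresses, 447 to 4213 CPM with TAC alone and 1097 to 2289 CPM with hypoxia alone, while Ahsp, the chaperone of alpha-globin in red cell precursors, had no count. Endothelial markers rose in 5 of 13 members (Pecam1, Vwf, Esam, Cldn5 and Eng), and the weighted fit called 4 higher. The call was lost in 15 of 24 fits without 1 library for Cldn5 and in 6 for Eng. The exception that fell was Kdr, the main VEGF receptor, at 218 to 279 CPM (median 265) without stress and 94.0 to 247 CPM (median 145) with both. Its groups overlapped (-0.67 ± 0.21, adjusted p = 0.0392), and the call was lost in 9 of 24 fits without 1 library. Other vessel lists did not rise as a whole. Of 21 tested genes of angiogenic signalling, 1 rose and 1 fell (median log2 change -0.22), and the weighted fit called 1 higher and 5 lower. Of 10 pericyte and smooth muscle markers, 1 rose and 1 fell, and the weighted fit called 3 higher and 1 lower. The summed endothelial markers were 1583 to 1737 CPM without stress and 1591 to 2119 CPM with both, against 1096 to 1770 CPM with TAC alone and 1847 to 2263 CPM with hypoxia alone, where the weighted fit called 8 of the 13 higher. The part of these cell-type levels in the other results was not tested.

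Genes that went beyond each single stress were found next: hypoxia TAC differed in 1 direction from normoxia sham, from TAC alone and from hypoxia alone in 144 genes (0.958%), of which 91 were higher and 53 lower. These comparisons share the same 6 mice with both stresses. Of the 144 genes, 60 (0.399%, 40 higher and 20 lower) met the rule for adding up. Both single changes pointed the same way and the departure from their sum was not called. Neither single change had to be called on its own. For Depp1, Pura, Slc4a1 and Hk1, described below, the combined estimate went further than the sum of both. A departure that is not called does not show that the changes are strictly additive. This class differed between fits: the step from TAC alone to both stresses, called for 1663 genes by edgeR (11.1%), was called for 92 by the weighted fit and for 0 by edgeR in those 12 libraries alone, where 2364 genes had an unadjusted p under 0.05 and the smallest adjusted p was 0.0762. The weighted fit kept 2 of the 60 genes, Depp1 and Pura. Without hypoxia TAC 3, 4, 5 or 6 the edgeR class held 33, 151, 27 and 33 genes.

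Depp1 encodes a target of FOXO transcription factors that acts in autophagy, and it was singled out after its values were seen. It was at 34.8 to 53.8 CPM (median 47.6) without stress, 34.2 to 104 CPM (median 73.2) with TAC alone, 37.6 to 61.0 CPM (median 52.2) with hypoxia alone and 95.1 to 216 CPM (median 146) with both. The mice with both stresses overlapped only with those with TAC alone, and lay above all 6 unstressed mice (1.76 ± 0.24, adjusted p = 0.00049). The single log2 changes were 0.60 and 0.18, and the departure from their sum, 0.98, was not called (adjusted p = 0.102). Pura, a nucleic acid-binding protein, moved down: it was at 41.4 to 43.0 CPM without stress and 23.5 to 35.1 CPM with both (-0.58 ± 0.10, adjusted p = 0.00137), with single changes of -0.04 and -0.10. In the weighted fit, the step from TAC alone to both had an adjusted p of 0.0459 for Depp1 and 0.0451 for Pura.

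Slc4a1, the anion exchanger of red cells and a member of the erythroid list, had the largest combined change of the class. It ran from 0.466 to 2.40 CPM (median 0.742) without stress, from 0.110 to 9.07 CPM (median 0.621) with TAC alone, from 0.851 to 3.79 CPM (median 1.55) with hypoxia alone and from 2.48 to 64.9 CPM (median 22.9) with both. Every mouse with both stresses exceeded every unstressed mouse (4.54 ± 0.78, adjusted p = 0.00142). Its single log2 changes were 1.0 and 0.81, although its median with TAC alone lay below the unstressed median. The step from TAC alone had an adjusted p of 0.00598 with edgeR and 0.144 in the weighted fit. Ddit4, an inhibitor of mTORC1 signalling that low oxygen and glucocorticoids induce, was at 5.17 to 10.96 CPM (median 9.16), 5.0 to 33.3 CPM (median 7.95), 6.63 to 25.0 CPM (median 18.6) and 28.6 to 82.2 CPM (median 44.0) in the same order of groups. The Ddit4 median with TAC alone, too, lay below the unstressed median. All mice with both stresses lay above all unstressed and all hypoxia-alone mice (2.50 ± 0.42 against unstressed, adjusted p = 0.00127), and the step from TAC alone had an adjusted p of 0.00671 with edgeR and 0.0982 in the weighted fit. Hk1, the hexokinase of many tissues, went from a median of 204 CPM without stress to 339 CPM with both (0.84 ± 0.14, adjusted p = 0.0013), with single changes of 0.23 and 0.27. Wt1, a transcription factor of the epicardium, was at 4.58 to 8.35 CPM (median 6.23) without stress and at 10.7 to 16.7 CPM (median 14.9) with both (1.22 ± 0.22, adjusted p = 0.00145). The single changes of Wt1 were 0.15 with TAC alone and 0.33 with hypoxia alone. It was the 1 mesothelial marker of 6 that could be tested.

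**Figure D3:**
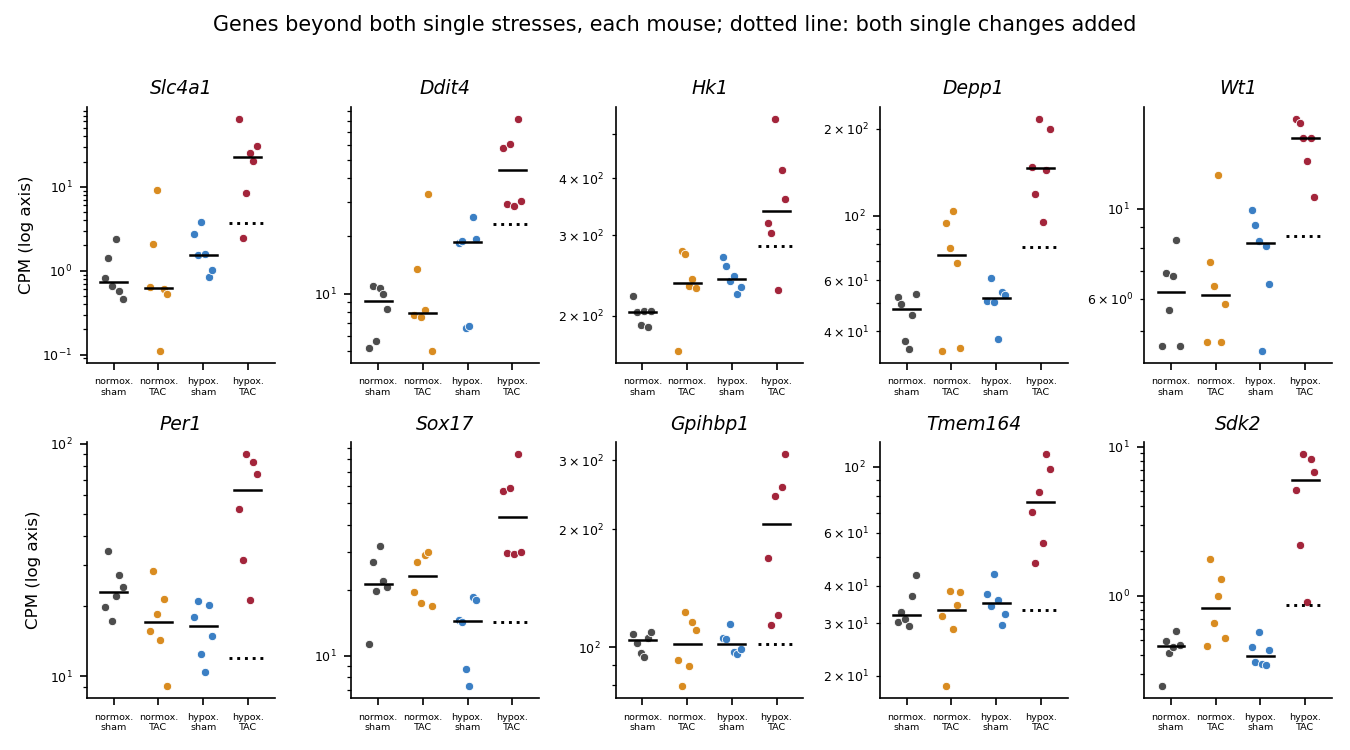
Each point is 1 mouse, on a log axis of CPM, in the 4 groups (normox., normoxia; hypox., hypoxia), each black line is a group median, and the dotted line over hypoxia TAC is the normoxia sham mean multiplied by both single fold changes. In the upper row the medians with both stresses lie above the dotted line although the departure was not called, and in the lower row it was called.

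Changes that appeared only with both stresses needed, in addition, a called departure from the sum (308 genes by edgeR, 2.05%, and 264 by the weighted fit) and no call for either single stress. This held for 18 genes (0.12%), 16 higher and 2 lower. The weighted fit gave 5 genes, sharing Tmem164 and Gpihbp1 with edgeR, and fits of each comparison in its own libraries gave 0. The class was small and moved with single libraries, holding 4 genes without hypoxia TAC 5 and 104 without hypoxia TAC 4.

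Gpihbp1 encodes the protein that carries lipoprotein lipase to the capillary surface, and it was singled out, as was Tmem164, after the values were seen. It was at 94.3 to 109 CPM (median 104) without stress, 79.5 to 123 CPM (median 102) with TAC alone, 96.0 to 115 CPM (median 102) with hypoxia alone and 114 to 312 CPM (median 206) with both. The single log2 changes were -0.01 and 0.00, and with both stresses it was 0.98 ± 0.18 (adjusted p = 0.00175), so that the departure from the sum was 0.99 ± 0.25 (adjusted p = 0.0427). It stayed in the class in 10 of 24 fits that each left out 1 library. Tmem164, a transmembrane protein gene, stayed in it in all 24. It ran from 29.3 to 43.3 CPM (median 31.9) without stress, 18.4 to 38.4 CPM (median 33.2) with TAC alone, 29.5 to 43.9 CPM (median 35.1) with hypoxia alone and 47.6 to 110.2 CPM (median 76.1) with both. No mouse of the other 3 groups reached the lowest mouse with both stresses (1.19 ± 0.18 against unstressed, adjusted p = 0.000702; departure 1.22 ± 0.26, adjusted p = 0.0189).

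Per1, a repressor of the clock that is also a glucocorticoid target, rose with both stresses. It was at 17.3 to 34.6 CPM (median 23.1) without stress, 9.04 to 28.3 CPM (median 17.1) with TAC alone, 10.4 to 20.98 CPM (median 16.5) with hypoxia alone and 21.2 to 90.5 CPM (median 63.2) with both. Its log2 change of 1.28 ± 0.30 (adjusted p = 0.00799) stood beside single estimates of -0.44 and -0.58, which were not called. The departure was 2.30 ± 0.42 (adjusted p = 0.0166; 0.0279 in the weighted fit), and Per1 stayed in the class in all 24 fits without 1 library, but in the weighted fit the step from TAC alone had an adjusted p of 0.0788. Sox17, a transcription factor of arterial endothelium, went from 11.3 to 31.8 CPM (median 21.3) without stress to 29.3 to 84.3 CPM (median 43.4) with both. Its departure of 1.75 ± 0.40 (adjusted p = 0.0279) missed the threshold in the weighted fit (adjusted p = 0.0763). Sdk2, a cell adhesion gene of the immunoglobulin superfamily, rose from 0.246 to 0.576 CPM (median 0.460) to 0.910 to 8.94 CPM (median 5.97), without overlap (3.57 ± 0.43, adjusted p = 0.000196). Its departure was 2.59 ± 0.66 (adjusted p = 0.0434), and it was in the class in 6 of the 24 fits without 1 library.

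With edgeR, the class with the most genes ran the other way. For 901 genes (6%), the change called with TAC alone (4114 genes, 27.4%) was met by a called change in the opposite direction when hypoxia was added to TAC: 606 had risen and 295 had fallen with TAC alone. Both calls use the same 6 mice with TAC alone, on opposite sides of the comparison. A shift of that group by chance would therefore move both calls together, and they are not separate findings. With both stresses, 871 of the 901 were no longer called against the unstressed hearts, 25 were called the same way as with TAC alone, and 5 the opposite way. The weighted fit found 74, all of them among the 901, and fits in the 12 libraries of each comparison found 0; in both of these, more hypoxia changes than TAC changes were offset (325 and 285, described below). The edgeR count was 452 without normoxia TAC 4, 458 without hypoxia TAC 5, 541 without hypoxia TAC 1 and 1366 without normoxia TAC 1. Ribosome biogenesis genes stood out by count in edgeR only: TAC alone raised 10 of 16, both stresses called 0 (the weighted fit called 1, as lower), and 8 of the 16 were in this class, against 0 in the weighted fit. Mitochondrial rRNA, 3.98% to 5.72% of counts with TAC alone, was 2.03% to 3.92% with both stresses and 2.93% to 3.71% without stress, and its part in these results was not tested.

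Asb5 and Slmap held in both the edgeR and the weighted fit, and were singled out after their values were seen. Asb5, a muscle gene with ankyrin repeats and a SOCS box, was at 46.8 to 60.9 CPM (median 51.2) without stress, 63.7 to 154 CPM (median 92.6) with TAC alone, 45.5 to 74.4 CPM (median 55.3) with hypoxia alone and 21.2 to 52.1 CPM (median 36.4) with both. Every mouse with both stresses lay below every mouse with TAC alone. The log2 change from TAC alone to both was -1.35 ± 0.20 (adjusted p = 0.000828; 0.0149 in the weighted fit), and against the unstressed mice it was -0.48 ± 0.19 (adjusted p = 0.0956). Slmap, a protein of the muscle cell's membrane systems, was at 158 to 236 CPM (median 212) without stress, 478 to 918 CPM (median 592) with TAC alone and 149 to 455 CPM (median 249.9) with both. It rose by 1.60 with TAC alone and was 1.18 lower with both than with TAC alone on the log2 scale (-1.18 ± 0.21, adjusted p = 0.00234; 0.0305 in the weighted fit). Its change against unstressed hearts was 0.41 with a 95% interval of -0.02 to 0.85.

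Other members carried larger spreads. Myh7, the fetal and slow myosin heavy chain of the mouse heart, was at 321 to 431 CPM (median 344) without stress, 474 to 1792 CPM (median 1278) with TAC alone and 197 to 865 CPM (median 521) with both. Both TAC groups overlapped, and the step between them was -1.28 ± 0.29 (adjusted p = 0.00949; 0.0787 in the weighted fit). Ccr2, the chemokine receptor of recruited monocytes, was at 2.38 to 4.39 CPM (median 3.91) without stress, 4.29 to 113 CPM (median 24.2) with TAC alone and 1.43 to 13.8 CPM (median 2.91) with both. It rose by 3.29 with TAC alone and was not called with both (0.72, 95% interval -0.78 to 2.21); the step had an adjusted p of 0.0228 with edgeR and 0.175 in the weighted fit. Vegfa, which encodes the main vessel growth factor, was at 3.73 to 6.95 CPM (median 5.30) without stress, 5.08 to 11.1 CPM (median 7.95) with TAC alone and 3.58 to 7.54 CPM (median 4.63) with both, where its log2 change was -0.11 (95% interval -0.54 to 0.33).

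Falls were offset as well. Pkm, the muscle-type pyruvate kinase gene of glycolysis, singled out after its values were seen, was at 1776 to 1963 CPM (median 1855) without stress, 1448 to 1644 CPM (median 1541) with TAC alone and 1841 to 2188 CPM (median 2051) with both. The mice with TAC alone lay below all others, and the step from TAC alone to both was 0.39 ± 0.07 (adjusted p = 0.00234; 0.0391 in the weighted fit). Kcnh2, the channel of the rapid delayed rectifier potassium current, was at 10.998 to 29.3 CPM (median 20.1) without stress, 5.38 to 13.1 CPM (median 6.99) with TAC alone and 10.1 to 25.4 CPM (median 21.4) with both. Its step was 1.28 ± 0.29 (adjusted p = 0.00817; 0.256 in the weighted fit).

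**Figure D4:**
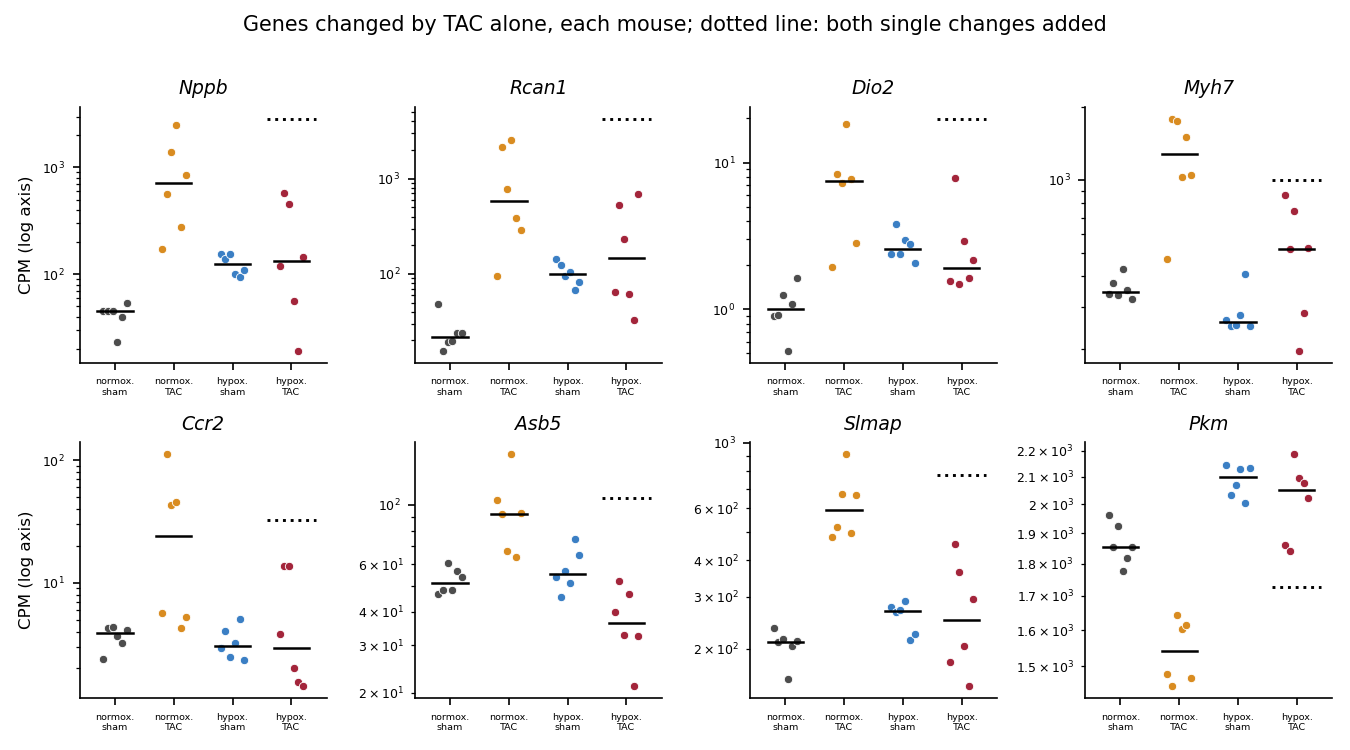
Each point is 1 mouse, on a log axis of CPM, in the 4 groups (normox., normoxia; hypox., hypoxia), with group medians as black lines and a dotted line at the normoxia sham mean multiplied by both single fold changes. In hypoxia TAC the mice all lie below the dotted line for 7 of the genes and all above it for Pkm.

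Hypoxia alone changed 25 genes with edgeR (0.166%; 1202 at an unadjusted p under 0.05) and 1355 in the weighted fit (9.02%). For 12 of the 25 (0.0799% of tested genes), 5 raised and 7 lowered by hypoxia alone, adding TAC moved the gene back with a called change. With both stresses, 10 of the 12 were not called against unstressed hearts. All 12 were among 325 such genes of the weighted fit, and fits in each comparison's own libraries gave 285. Leaving out single libraries gave 4 to 22 genes.

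The clock list held 3 of these 12 genes (Ciart, Per2 and Usp2). Of its 20 tested members, both stresses lowered 6 (Per3, Nr1d1, Dbp, Tef, Hlf and Ciart) and raised 2 (Clock and Per1). Hypoxia alone lowered 5 and raised 1 with edgeR, where 0.0799% of all tested genes fell and 0.0865% rose. In the weighted fit it lowered 12 and raised 4, against 3.91% and 5.1% of all genes. The departure from the sum was positive and called for 7 of the 20 and negative for 2, against 1.12% and 0.925% of all tested genes. The harvest time, which sets the phase of these genes, is not in the labels. Promoters of 3 of them are shown because each holds the E-box CACGTG, a palindrome and so the same on both strands, through which CLOCK and BMAL1 act. The windows run from 250 bases before to 50 bases after the start in RefSeq build GRCm38.p6 and are printed along the gene's strand, with the E-box in capitals: Ciart at chr3:95882179-95882478 on the minus strand, Per1 at chr11:69098699-69098998 and Tef at chr15:81802423-81802722 on the plus strand.
Ciart: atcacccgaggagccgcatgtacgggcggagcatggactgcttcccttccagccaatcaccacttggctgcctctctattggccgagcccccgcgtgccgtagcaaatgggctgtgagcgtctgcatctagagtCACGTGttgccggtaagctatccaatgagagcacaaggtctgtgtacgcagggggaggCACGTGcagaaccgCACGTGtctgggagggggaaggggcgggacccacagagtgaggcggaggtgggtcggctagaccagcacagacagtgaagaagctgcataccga
Per1: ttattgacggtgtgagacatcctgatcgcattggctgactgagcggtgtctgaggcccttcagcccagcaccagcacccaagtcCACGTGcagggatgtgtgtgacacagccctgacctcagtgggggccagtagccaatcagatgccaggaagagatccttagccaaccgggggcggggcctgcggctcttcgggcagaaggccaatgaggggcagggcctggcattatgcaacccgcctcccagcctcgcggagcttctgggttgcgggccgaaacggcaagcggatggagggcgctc
Tef: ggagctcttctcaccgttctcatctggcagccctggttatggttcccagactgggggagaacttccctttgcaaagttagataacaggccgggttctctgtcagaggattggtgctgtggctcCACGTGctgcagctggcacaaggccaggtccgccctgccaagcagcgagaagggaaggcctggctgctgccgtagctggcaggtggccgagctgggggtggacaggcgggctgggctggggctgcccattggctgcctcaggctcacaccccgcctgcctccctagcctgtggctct
The first base of the E-box lay 116, 58 and 44 bases before the start in Ciart, 166 before it in Per1 and 127 before it in Tef. A window of this kind held the motif in 5 of the 17 clock genes with an entry (29.4%), in 3 of 9 of the genes lowered or raised by hypoxia and moved back by TAC (33.3%), and in 2187 of all 27025 genes (8.09%; 11.2% of 11617 tested genes). In the other classes counted, the share was 26.7% of 15 genes only with both stresses and 29.4% of 17 short of the sum. It was 8.7% of 115 genes beyond both single stresses and 6.38% of 47 that add up. These sets share genes, so their shares are not separate results. The 3 of 9 were Ciart, Adam19 and Coq10b, of which only Ciart is in the clock list. Ciart and Adam19 are also short of the sum, as is the clock gene Tef, and the clock gene Per1 is in the class only with both. Cry1 and Bhlhe41 were the other clock genes with the motif. The windows of Per3, Dbp, Nr1d1, Hlf, Clock, Arntl and Usp2, among others of the list, held none. A match describes letters and not binding.

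Ciart encodes a repressor of CLOCK and BMAL1. It was at 15.6 to 51.2 CPM (median 31.3) without stress, 4.19 to 8.27 CPM (median 6.87) with TAC alone, 3.22 to 5.77 CPM (median 4.37) with hypoxia alone and 8.49 to 14.5 CPM (median 10.8) with both. The mice with both stresses thus lay between the unstressed mice and both single-stress groups, touching none of them. The log2 changes were -2.31 with TAC alone, -2.83 with hypoxia alone and -1.52 ± 0.24 with both (adjusted p = 0.000716). The departure from the sum was 3.62 ± 0.35 (adjusted p = 2.65e-06), the smallest adjusted p of all genes for it. Per2, a core repressor, was at 11.4 to 39.1 CPM (median 18.8) without stress, 10.4 to 16.5 CPM (median 15.5) with TAC alone, 3.91 to 10.1 CPM (median 5.58) with hypoxia alone and 17.7 to 32.3 CPM (median 26.6) with both. Hypoxia alone lowered it below every other group (-1.83 ± 0.29, adjusted p = 0.00384), and TAC on top of hypoxia raised it by 2.02 ± 0.29 (adjusted p = 0.000589). Its change with both stresses was 0.18 ± 0.27 (adjusted p = 0.68). Ciart and Per2 were in this class in all 24 fits without 1 library.

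**Figure D5:**
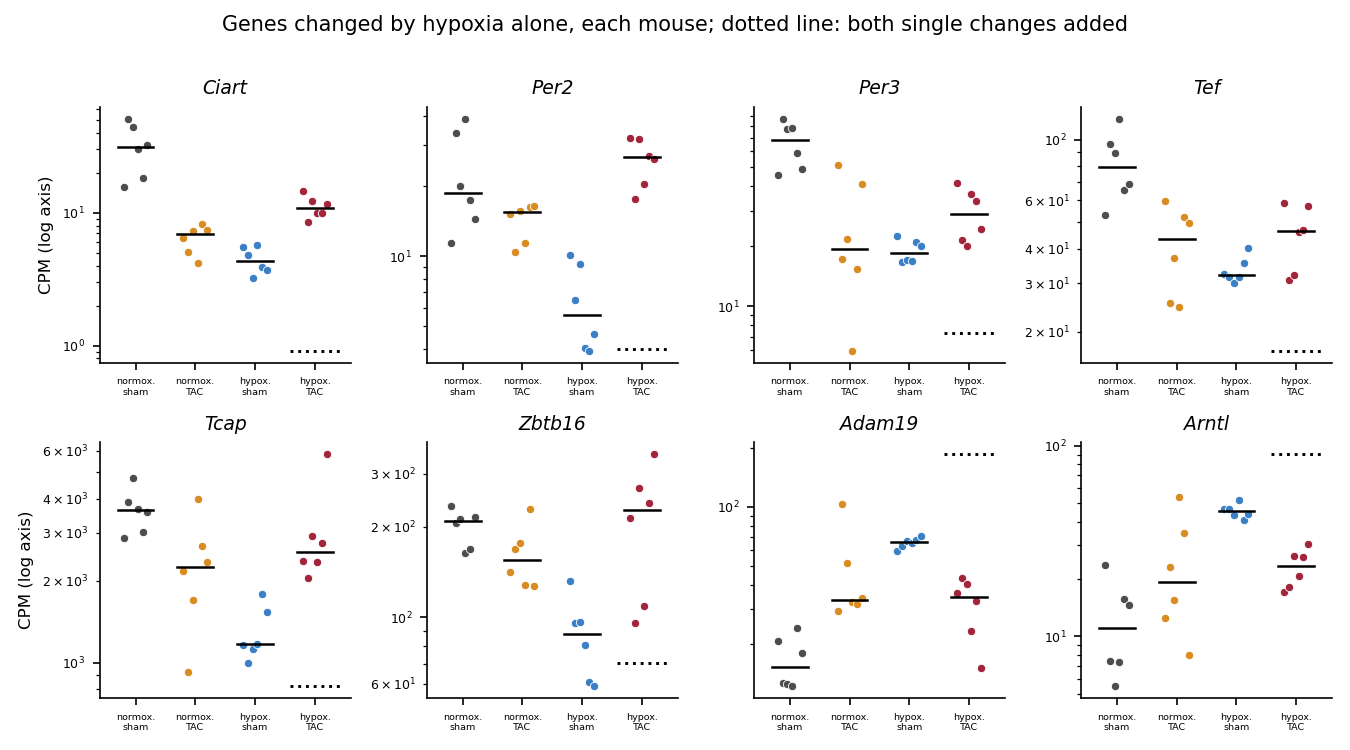
Each point is 1 mouse, on a log axis of CPM, in the 4 groups (normox., normoxia; hypox., hypoxia), with group medians as black lines and a dotted line at the normoxia sham mean multiplied by both single fold changes. For Ciart, Per2, Per3, Tef, Tcap and Zbtb16 all 6 mice with both stresses lie above the dotted line, and for Adam19 and Arntl all 6 lie below it.

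Genes outside the clock list moved in the same way. Tcap encodes telethonin, which caps titin at the Z-disc. It was at 2875 to 4775 CPM (median 3627) without stress, 924 to 3985 CPM (median 2255) with TAC alone, 997 to 1796 CPM (median 1169) with hypoxia alone and 2047 to 5839 CPM (median 2553) with both. All mice with both stresses lay above all with hypoxia alone, and the change from hypoxia alone to both was 1.23 ± 0.27 (adjusted p = 0.00782) after a fall of -1.49 ± 0.27 with hypoxia alone (adjusted p = 0.0173). Zbtb16, a zinc finger gene that glucocorticoids induce, was at 164 to 235 CPM (median 209.6) without stress, 58.9 to 132 CPM (median 88.3) with hypoxia alone and 95.9 to 349.5 CPM (median 227) with both. It changed by -1.19 with hypoxia alone and then by 1.28 ± 0.25 when TAC was added (adjusted p = 0.00487), but stayed in the class in only 9 of 24 fits without 1 library. Adam19, a membrane-bound metalloprotease, ran the other way. It was at 12.1 to 23.97 CPM (median 15.2) without stress, 29.4 to 104 CPM (median 33.3) with TAC alone, 59.3 to 71.2 CPM (median 66.2) with hypoxia alone and 15.04 to 43.4 CPM (median 34.7) with both. Each single stress raised it (1.51 and 1.98), yet with both it was lower than with hypoxia alone in every mouse (-1.04 ± 0.28, adjusted p = 0.0216). Itga1, the integrin alpha-1 collagen receptor, rose by 0.62 with hypoxia alone and was at 0.05 with both (95% interval -0.22 to 0.33). It was in the class in 7 of 24 fits without 1 library, and neither it nor Zbtb16 was in it with RLE scaling, without the filter on low counts or with the replicate block. Arntl, the BMAL1 gene and a member of the clock list, rose by 1.88 with hypoxia alone, and the 0.91 with both stresses was not called (adjusted p = 0.0913), nor was its difference between hypoxia alone and both (adjusted p = 0.0713).

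A last group kept the direction of TAC alone but fell short of the sum. It held 21 genes (0.14%), 12 higher and 9 lower, and the weighted fit gave 22 with 16 shared. Leaving out single libraries gave 5 to 71 genes. Nppb, the gene of B-type natriuretic peptide, was at 23.3 to 54.1 CPM (median 45.1) without stress, 174 to 2518 CPM (median 713) with TAC alone, 93.8 to 156 CPM (median 125) with hypoxia alone and 19.1 to 578 CPM (median 132) with both. The mice with both stresses covered the whole range of the unstressed mice and more. Both stresses raised it by 2.44 ± 0.65 (adjusted p = 0.0178), against 4.51 and 1.57 for TAC and hypoxia alone, which left a departure of -3.65 ± 0.89 (adjusted p = 0.0406; 0.0254 in the weighted fit). Rcan1, an inhibitor of calcineurin and a target of its signalling, was at 15.5 to 48.0 CPM (median 21.8) without stress, 95.4 to 2550 CPM (median 583) with TAC alone, 67.3 to 142 CPM (median 99.8) with hypoxia alone and 32.9 to 697 CPM (median 149) with both. Its log2 changes were 3.42 with both, 5.38 with TAC alone and 2.04 with hypoxia alone (departure -3.99 ± 1.01, adjusted p = 0.0437). Dio2, the enzyme that turns thyroxine into active thyroid hormone, gave 1.47 with both, 2.86 with TAC alone and 1.38 with hypoxia alone (departure -2.78 ± 0.65, adjusted p = 0.0294). Nppb, Rcan1 and Dio2 were in the class in 8, 10 and 9 of the 24 fits without 1 library.

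Among the falls that stopped short of the sum were clock genes. Per3 was at 45.6 to 87.4 CPM (median 68.2) without stress, 5.95 to 51.2 CPM (median 19.5) with TAC alone, 16.7 to 22.6 CPM (median 18.4) with hypoxia alone and 20.1 to 41.7 CPM (median 29.2) with both. All mice with both stresses lay below all unstressed mice (-1.15 ± 0.32, adjusted p = 0.0207), and the single changes were -1.37 and -1.80, so that the departure was 2.02 ± 0.46 (adjusted p = 0.0255). Tef, an output transcription factor whose promoter is shown above, changed by -0.86 ± 0.22 with both stresses (adjusted p = 0.0131), by -0.99 with TAC alone and by -1.29 with hypoxia alone, with a departure of 1.42 ± 0.31 (adjusted p = 0.0221). Adam19, described above, fell short of the sum too, but as a rise, with a departure of -2.55 ± 0.40 (adjusted p = 0.00479).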

How the data were processed

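Per the labels' protocols, libraries of the heart apex of 24 mice (4 groups of 6) were made by a low-input method that started from 100 ng of RNA. The authors deposited raw counts per gene symbol, for which the submitters' processing notes list STAR 2.7.3a, bcl2fastq 2.20.0.422, featureCounts, Subread 2.0.0 and genome build GRCm39. Annotation and strand setting are not given in the sources used here, so overlapping genes cannot be separated.

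Of 40840 genes, filterByExpr (minimum count 10, total 15) kept 15027. TMM-scaled counts entered edgeR 4.0.16 (robust quasi-likelihood F test, 1 mean per group, 20 residual degrees of freedom, Benjamini-Hochberg over all genes), which was tested on simulated data: 131 of 150 simulated combined changes were called (31 of 50 at 2-fold, the others being larger), and 6 of 14877 genes without one. Each gene was simulated with 1 spread for all groups, whereas the spread between these mice was uneven. The rate of false calls in these data therefore cannot be read from the simulation. Other fits used limma 3.58.1 and DESeq2 1.42.0.

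Same-numbered libraries did not deviate together: 1 of 6 pairs had a correlation over 0.1, so the main fit has no replicate block. Members, the 20 pathway and 15 cell marker lists and classes were chosen with earlier results of these data known. Named genes were the 12 largest rises and falls, 8 per class and direction, up to 4 per list by smallest p and a panel of 25. Genes taken by this rule had a mean of at least 1 CPM. Further list members are named to spell out counts, and other genes described are said to be singled out after their values were seen.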

Additional observations from a re-analysis of the deposited data

Results flagged for a closer look

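In 96 sets of 6 mice (the genes described in detail, in normoxia sham and hypoxia TAC), 4 had 1 mouse far from the other 5 by Dixon's test, which chance gives in about 1 of 20 groups. Normoxia sham 4 was the mouse in 3 of them: it was highest for Sgk1 (105 CPM, the next mouse 80.7), lowest for Nppb (23.3 CPM, the next 39.9) and lowest for Slmap (158 CPM, the next 205). Hypoxia TAC 6 was highest for Tcap (5839 CPM, the next 2920).

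The effect of TAC differed between hypoxia and normoxia by a called departure from the sum (log2, edgeR) in these genes. It was above 0 for Ciart (3.62), Per2 (2.7), Sdk2 (2.59), Per1 (2.30), Kcnh2 (2.10), Per3 (2.02), Tcap (1.89), Sox17 (1.75), Zbtb16 (1.59), Tef (1.42), Tmem164 (1.22) and Gpihbp1 (0.99). It was below 0 for Rcan1 (-3.99), Nppb (-3.65), Dio2 (-2.78), Adam19 (-2.55), Arntl (-1.96), Slmap (-1.51) and Asb5 (-1.49).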

How the results depend on the processing

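Counts of called genes moved by more than 1.5 times under several settings. Without a filter on low counts, the combined change held 1295 genes (513 lower), the departure from the sum 135, and the classes 38 (add up), 8 (only with both), 514 (TAC change cancelled in hypoxia), 6 (hypoxia change cancelled by TAC) and 6 (short of the sum). DESeq2 gave 919 departures, 99 that add up, 65 only with both, 32 hypoxia changes cancelled and 70 short of the sum. The weighted fit gave 1406 lower, 2 that add up, 5 only with both, 74 TAC changes cancelled and 325 hypoxia changes cancelled; fits in each comparison's own libraries gave 0, 0, 0 and 285 for these 4 classes. With at least a 2-fold change, 659 genes were called (489 higher, 170 lower). RLE scaling moved none of these counts by as much. Leaving out 1 library gave 990 to 2824 combined calls (563 to 1570 higher, 427 to 1254 lower), 93 to 946 departures, and 27 to 151, 4 to 104, 452 to 1366, 4 to 22 and 5 to 71 genes in the 5 classes in the order above. The cause was not tested. No called direction was reversed among the named genes.

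With the replicate number as a block, 1691 combined calls (927 higher, 764 lower), 319 departures, 48 that add up, 17 only with both, 851 and 8 cancelled and 17 short of the sum were found; the numbers do not pair the mice (correlations of -0.157 to 0.132, over 8703 genes, with 1 of 6 libraries closest to its own number). Of 163 combined changes of single genes, the block lost 11, no filter 34, the weighted fit 6, and 107 were called in all 24 fits without 1 library. Of 50 departures from the sum, no filter lost 24, the weighted fit 14 and the block 9. Leaving out hypoxia TAC 3 or 4 or normoxia TAC 4 for the list counts was chosen after seeing the data.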
